A study of Mus musculus with 6 samples.

Results

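The genes described here are those of MHC class I presentation: the heavy chains H2-K1, H2-D1, H2-T23 and H2-Q7, the light chain B2m, the peptide transporter subunits Tap1 and Tap2, the loading factor Tapbp, the trimming peptidase Erap1 and the transactivator Nlrc5. They were chosen by name, through the GENCODE vM21 symbol of each Ensembl identifier, and all 10 were found among the 21780 genes of the count table. C57BL/6 mice aged 6 to 8 weeks were injected intraperitoneally with PBS or with whole glucan particles (WGP), hollow yeast shells made mostly of beta-glucan that phagocytes take up, and 7 days later their pancreatic CD45+CD11b+ cells were sorted for RNA. There were 3 libraries for each group, named PBS and WGP with replicate numbers 1 to 3, and both groups came from mice without tumors. According to the study the samples were separate animals from a single experiment. Both sexes were used, and the labels do not give the sex behind a library. Transcripts of 4 Y-linked genes, which come from male cells, were near absent outside PBS replicates 2 and 3. Sex and treatment therefore cannot be fully told apart. The comparison asks how the class I genes of pancreatic myeloid cells differed a week after the particles.

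MHC class I molecules show peptides from inside the cell to CD8 T cells and are also read by receptors of natural killer cells. Proteasomes cut proteins in the cytosol, the TAP transporter moves the peptides into the endoplasmic reticulum, and the peptidase ERAP1 trims them there. Tapasin, the product of Tapbp, holds the empty heavy chain and beta-2 microglobulin at the transporter until a peptide binds. Interferons raise the whole set, through IRF1 and through NLRC5, a class I counterpart of the class II transactivator CIITA.

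The promoters of H2-K1, H2-D1, H2-Q7 and B2m are shown because these genes are read together in what follows, and their start regions carry the elements by which interferon and NLRC5 are known to act on the family. Each is a window of 300 bases around a RefSeq transcription start on GRCm38.p6, written in the direction of the gene. Capitals mark matches on either strand to an IRF core (AANNGAAA), a kappaB site, a CRE core (TGACG) or a CCAAT box (ATTGG).
H2-K1, chr17:34000298-34000597, minus strand: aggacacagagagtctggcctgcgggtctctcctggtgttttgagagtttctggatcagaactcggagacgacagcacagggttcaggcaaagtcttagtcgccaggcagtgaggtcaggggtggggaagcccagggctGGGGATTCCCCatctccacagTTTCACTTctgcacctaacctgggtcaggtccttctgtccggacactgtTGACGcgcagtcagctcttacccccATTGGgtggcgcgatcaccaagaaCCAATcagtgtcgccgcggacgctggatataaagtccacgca
H2-D1, chr17:35262844-35263143, plus strand: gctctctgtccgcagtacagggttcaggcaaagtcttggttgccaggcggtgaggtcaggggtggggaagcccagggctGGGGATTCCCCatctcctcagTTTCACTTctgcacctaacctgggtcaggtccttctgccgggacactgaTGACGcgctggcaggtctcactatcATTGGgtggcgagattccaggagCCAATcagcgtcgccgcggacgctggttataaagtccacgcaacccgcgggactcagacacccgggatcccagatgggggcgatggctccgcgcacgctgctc
H2-Q7, chr17:35438905-35439204, plus strand: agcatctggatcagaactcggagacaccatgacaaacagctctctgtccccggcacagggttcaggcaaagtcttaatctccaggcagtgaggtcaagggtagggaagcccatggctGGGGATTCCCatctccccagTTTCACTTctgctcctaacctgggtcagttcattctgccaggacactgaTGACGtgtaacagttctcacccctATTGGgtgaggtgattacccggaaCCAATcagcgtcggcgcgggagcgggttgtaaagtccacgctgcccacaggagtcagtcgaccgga
B2m, chr2:122147437-122147736, plus strand: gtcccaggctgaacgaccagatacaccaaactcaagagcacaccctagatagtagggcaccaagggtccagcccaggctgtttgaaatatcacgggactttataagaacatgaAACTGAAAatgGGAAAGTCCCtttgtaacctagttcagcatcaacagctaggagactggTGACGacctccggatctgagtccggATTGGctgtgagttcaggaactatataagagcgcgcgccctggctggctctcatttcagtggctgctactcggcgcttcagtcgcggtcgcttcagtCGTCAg

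In the H2-K1, H2-D1 and H2-Q7 windows the capitals came in one order, the kappaB site, the IRF core, the CRE core and the CCAAT boxes. The window of the remaining heavy chain, H2-T23, differed, with 2 IRF cores, 1 CCAAT box and 0 matches to the kappaB site or the CRE core. In the B2m window the IRF core stood before the kappaB site. A window was on hand for 8 of the 10 genes, Tap2 and Nlrc5 having none. The IRF core was found in 6 of these 8, beside 23.9% of all 32807 windows, and was missing in Tap1 and Tapbp. The H2-K1, H2-D1 and H2-Q7 windows are much alike in sequence, so their matches are not separate cases. The kappaB site was found in 4 of 8 (8.46% of all windows), the CRE core in 5 of 8 (20.8%) and the CCAAT box in 7 of 8 (37.4%). No window of the 8 held the letters TTCNNNGAA of a GAS element, which 8.29% of all windows held. These matches describe letters in a short stretch and say nothing of binding.

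Class I presentation genes were higher in the WGP libraries, from the transactivator to the heavy chains. All 10 rose in edgeR's quasi-likelihood test at the threshold used throughout (Benjamini-Hochberg adjusted p up to 0.05), where 7.54% of the 14429 genes tested rose. In all 10 every WGP library stood above every PBS library, an order found for 16.0% of the genes tested, while 16.1% had the reverse order. Their median log2 fold change was 1.43, beside -0.05 over all genes tested. Tap1 and Nlrc5 had the largest fold changes, though H2-Q7 had the largest, 2.50, with PBS replicate 1 and WGP replicate 2 left out. H2-D1 was the one gene that did not reach a 2-fold rise. Of the genes tested, 4.53% both passed the test and rose at least 2-fold. Levels below are CPM, counts scaled to a common library size, after TMM scaling, given as mean ± SD with n = 3. As the samples are bulk RNA of a mixed population, more cells of a type and more RNA per cell cannot be told apart.

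**Figure D1:**
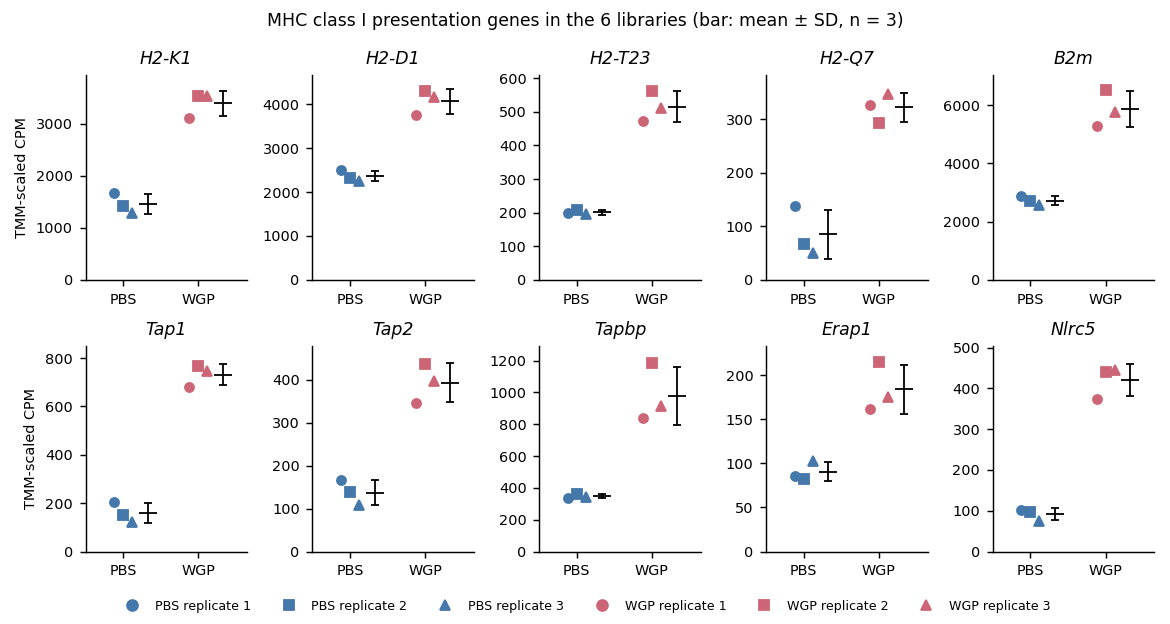
TMM-scaled CPM of the 10 class I presentation genes (vertical axes start at 0) in the 3 PBS libraries (blue) and the 3 WGP libraries (red), with mean ± SD beside the points. In each panel the WGP points lie above the PBS points, with the narrowest relative gap for H2-D1 and PBS replicate 1 nearest to the WGP points for H2-Q7.

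H2-K1 and H2-D1 encode the classical class I chains of this strain, which present peptides to CD8 T cells. H2-K1 (chr17:33996017-34000347, minus strand) was at 1672, 1424 and 1279 CPM in PBS replicates 1 to 3 and at 3119, 3536 and 3542 CPM in WGP replicates 1 to 3. Its lowest WGP library was thus well above its highest PBS library, and its mean went from 1458 ± 199 to 3399 ± 242 CPM (log2 fold change 1.22, SE 0.16, adjusted p = 0.000623 in edgeR). H2-D1 (chr17:35262730-35267499, plus strand) was at 2493, 2333 and 2261 CPM in the PBS libraries and at 3750, 4294 and 4158 CPM in the WGP libraries. The groups again did not overlap, but the step was smaller, from 2362 ± 119 to 4068 ± 283 CPM (0.78, SE 0.15, adjusted p = 0.00496).

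Per length, H2-D1 was the most abundant heavy chain gene in both groups, at 916 CPM per kb of exon in PBS and 1577 in WGP, and H2-K1 came next at 496 and 1157. By value H2-K1 was higher relative to H2-D1 in WGP. The log2 ratio of H2-K1 counts to H2-D1 counts within a library was -0.58, -0.71 and -0.82 in the PBS libraries and -0.27, -0.28 and -0.23 in the WGP libraries. Its mean moved by 0.44, from -0.70 ± 0.12 to -0.26 ± 0.02, and no PBS library reached the WGP range. An exact two-sided permutation test gave p = 0.1, the smallest value that 3 libraries against 3 allow, and 0.16 after Benjamini-Hochberg adjustment over the 8 ratios compared. Of the counts of all 24 H2 class I heavy chain genes in the table, H2-K1 took 30.3% to 31.3% in PBS and 35.5% to 36.1% in WGP, and H2-D1 took 46.7% to 53.5% and 42.4% to 43.8%. The summed level of the 24 genes went from 4709 ± 571 to 9462 ± 591 CPM.

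H2-T23 and H2-Q7 are nonclassical. H2-T23 encodes Qa-1, which shows signal peptides of other class I chains to the inhibitory CD94/NKG2A receptor of natural killer cells. It was at 199, 209 and 195 CPM in the PBS libraries and at 473, 564 and 511 CPM in the WGP libraries (chr17:36029773-36032855, minus strand). The PBS libraries lay close together for this gene, and the rise to a mean of 516 ± 45.3 CPM was larger than that of either classical chain by value (1.36, SE 0.14, adjusted p = 0.000142). The difference between the fold changes was not tested.

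H2-Q7 encodes a chain of Qa-2, held in the membrane by a lipid anchor. It was at 138, 67.7 and 51.1 CPM in the PBS libraries and at 327, 293 and 347 CPM in the WGP libraries (chr17:35439155-35443773, plus strand). PBS replicate 1 was the highest of its group and still less than the lowest WGP library, and the rise was 1.92 (SE 0.31, adjusted p = 0.00238), with the widest error of the 10 genes. PBS replicate 1 also held the most B cell transcript, with a summed level of 4 B cell markers of 2082 CPM beside 533 and 305 in the other PBS libraries and 70.1 to 136 in WGP, and the part of these cells in the H2-Q7 value was not tested. Without PBS replicate 1 and WGP replicate 2, the library with the most fibroblast transcript, the H2-Q7 fold change was 2.50, and the gene passed. With a covariate for Y-linked counts, which sets the WGP libraries against PBS replicate 1 alone, the fold change was 1.23.

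Because heavy chain genes are near copies of each other, reads can be split between them. Of all distinct 75-base stretches of a gene's transcripts, the length of the reads, 96.9% for H2-K1, 94.6% for H2-D1, 94.1% for H2-T23 and 83.0% for H2-Q7 were found in no other gene. H2-Q7 is therefore the least certain of the 4 chains. It shared 8.88% of its stretches with H2-Q10, 5.32% with H2-Q5 and 4.21% with its neighbor H2-Q6, another Qa-2 chain. Of the stretches of H2-Q6, 9.80% were shared with H2-Q7 and 82.1% were found in no other gene.

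B2m encodes beta-2 microglobulin, the light chain that every class I molecule needs at the surface. It was at 2876, 2710 and 2564 CPM in the PBS libraries and at 5295, 6518 and 5771 CPM in the WGP libraries (chr2:122147686-122153083, plus strand). It was the most abundant of the 10 genes per length, at 3158 CPM per kb in PBS and 6815 in WGP. The rise was 1.11 (SE 0.16, adjusted p = 0.000914). The log2 ratio of H2-D1 to B2m counts was -0.20 ± 0.02 in PBS and -0.52 ± 0.07 in WGP, with separate groups (exact permutation p = 0.1, adjusted 0.16). For H2-K1 over B2m the ratio was -0.90 ± 0.11 in PBS and -0.78 ± 0.09 in WGP, and these ranges overlapped (exact permutation p = 0.2, adjusted 0.229).

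**Figure D2:**
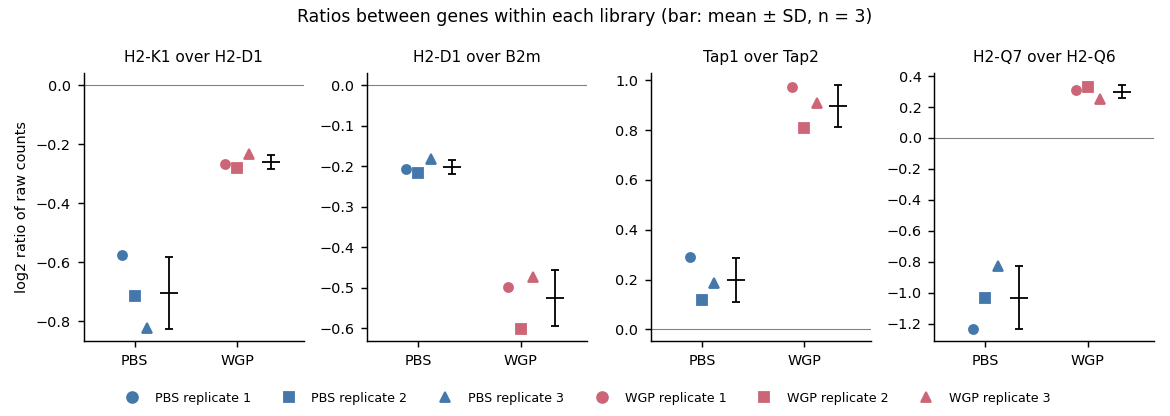
Log2 ratio of raw counts between gene pairs within each library, with mean ± SD beside the 3 points of each group. The WGP points lie above the PBS points for H2-K1 over H2-D1, Tap1 over Tap2 and H2-Q7 over H2-Q6 and below them for H2-D1 over B2m, with no overlap in these 4 panels and an exact permutation p of 0.1 in each.

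Tap1 and Tap2 encode the partner chains of the TAP transporter. Tap1 (chr17:34187553-34197225, plus strand) was at 204, 150 and 123 CPM in the PBS libraries and at 682, 766 and 746 CPM in the WGP libraries, a rise of 2.21 (SE 0.20, adjusted p = 6.01e-05). Only 6.15% of the genes tested had a larger log2 fold change. Tap2 (chr17:34203527-34216321, plus strand) was at 166, 138 and 108 CPM and at 347, 438 and 397 CPM in the same order, a rise of 1.52 (SE 0.18, adjusted p = 0.000381). Both chains rose. The log2 ratio of Tap1 to Tap2 counts was 0.29, 0.12 and 0.19 in PBS and 0.97, 0.81 and 0.91 in WGP, a difference of 0.70 with separate groups (exact permutation p = 0.1, adjusted 0.16). Per length the order of the mean levels differed between groups, with Tap2 at 36.3 and Tap1 at 29.0 CPM per kb in PBS but 104 and 134 in WGP. The Tap2 exons overlap those of Gm15821 on the other strand over 533 bases, and the strand setting of the counting is not given in the sources used here, so reads from that stretch cannot be told apart.

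Tapbp encodes tapasin, which bridges the transporter and the empty class I molecule and favors well-fitting peptides. It was at 337, 361 and 344 CPM in the PBS libraries and at 841, 1186 and 912 CPM in the WGP libraries (chr17:33915899-33929292, plus strand). WGP replicate 2 was the highest, and the mean went from 347 ± 12.2 to 980 ± 182 CPM (1.50, SE 0.17, adjusted p = 0.000225). Without that library and PBS replicate 1 the rise was 1.31. The Tapbp exons share 904 bases, 24.9% of their length, with the antisense gene Gm19412, and 149 bases with Zbtb22 on the same strand.

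Erap1 encodes the aminopeptidase that shortens peptides to class I length in the endoplasmic reticulum. It was at 86.1, 82.1 and 102 CPM in the PBS libraries and at 162, 215 and 175 CPM in the WGP libraries (chr13:74639568-74693201, plus strand). The rise was 1.03 (SE 0.16, adjusted p = 0.00195), next to H2-D1 the smallest of the 10. Erap1 was also the one gene of the 10 whose highest PBS library was replicate 3. Its exons share 834 bases with Cast on the other strand, 11.5% of their length.

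Nlrc5 encodes the transactivator that joins the RFX, CREB and NF-Y proteins at class I promoters. It was at 102, 97.7 and 75.6 CPM in the PBS libraries and at 374, 441 and 446 CPM in the WGP libraries (chr8:94434356-94527272, plus strand). The rise of 2.20 (SE 0.17) had the smallest adjusted p of the 10 genes, 2.4e-05 in edgeR. Per length Nlrc5 was the least abundant of them in PBS, at 10.8 CPM per kb, and at 49.5 it had passed Erap1 (25.2) in WGP.

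The libraries of a group kept a loose order over the genes. PBS replicate 1 was the highest PBS library for 7 of the 10 and PBS replicate 3 the lowest for 8. WGP replicate 1 was the lowest WGP library for 9 of the 10, and WGP replicate 2 the highest for 7. In spite of these shifts, no library crossed over to the other group for any of the 10 genes.

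Among the other H2 class I genes 20 were in the table and 8 had enough counts to test. Of these, 4 rose, 0 fell and 4 did not pass, with a median log2 fold change of 0.63. H2-T22, whose product binds no peptide and is a ligand of some gamma delta T cells, was at 53.2, 49.8 and 41.5 CPM in PBS and 154, 157 and 159 CPM in WGP (1.70, adjusted p = 5.91e-05). H2-T24 rose by 1.24 and H2-Q4 by 1.06, with adjusted p-values of 0.00148 and 0.00656. H2-M3, which presents peptides that start with N-formyl methionine, as bacterial ones do, rose by 0.74, from 45.6 ± 2.81 to 76.0 ± 5.85 CPM (adjusted p = 0.00942). The call of H2-Q4 was lost with the Y-linked covariate (adjusted p = 0.0533) and that of H2-M3 without WGP replicate 3 (0.0545). H2-T22 is also uncertain in its source, since 15.7% of its stretches occur in H2-T10, which is not in the table, and 81.5% are its own. The H2-T22 exons also share 1003 bases, 29.4% of their length, with the antisense gene A930015D03Rik. For H2-Q4 the share is 19.1%, with the antisense gene Gm11131.

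H2-Q6 was the chain in which PBS replicate 1 decided the outcome. It was at 324, 139 and 90.5 CPM in the PBS libraries and at 264, 232 and 292 CPM in the WGP libraries, so that PBS replicate 1 was above all WGP libraries and the other PBS libraries were below them. The fold change was 0.51 (SE 0.37, adjusted p = 0.418), and without PBS replicate 1 it was 1.19 with an adjusted p of 0.00285, while with the Y-linked covariate it was -0.30. The log2 ratio of H2-Q7 to H2-Q6 counts went from -1.03 ± 0.20 to 0.30 ± 0.04 and did not overlap between the groups (exact permutation p = 0.1, adjusted 0.16). H2-Q10 (0.39, adjusted p = 0.483), H2-M2 (-0.20, 0.894) and H2-Q2 (-0.16, 0.980) did not pass, and the most any of them reached in a library was 32.7 CPM. H2-Q10 passed in 1 of 17 alternatives, at 0.96 without PBS replicate 1 and WGP replicate 2, and was at -0.11 with the Y-linked covariate. The other 12 genes were hardly seen. H2-Q1 and H2-T3 had a single count in 2 libraries each, and 10 genes of the H2-M cluster had 0 counts throughout, which allows up to 3 counts in a library for counting error alone.

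**Figure D3:**
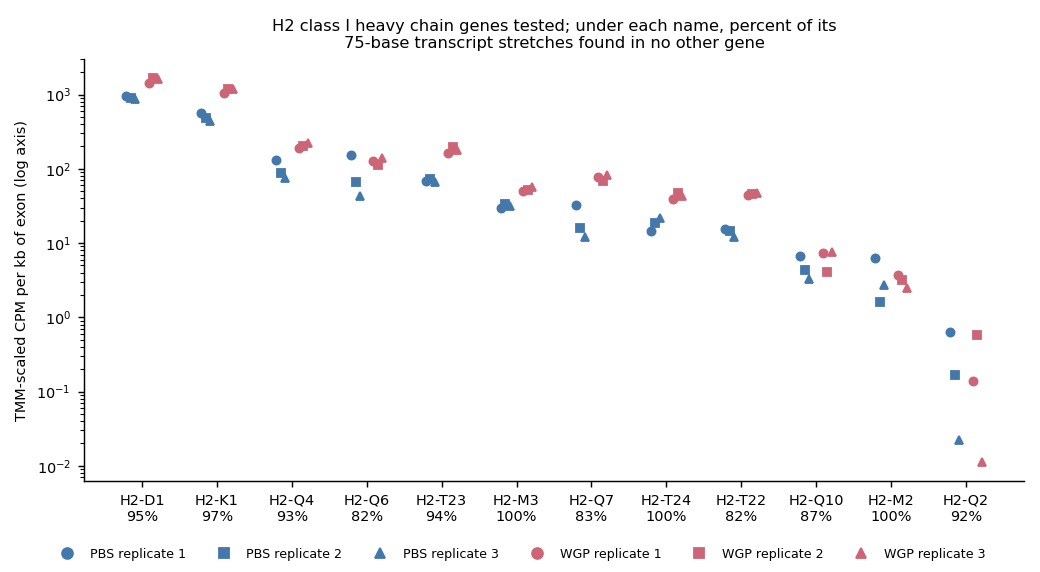
Level of the 12 tested H2 class I heavy chain genes per kb of exon (log axis) in each library, with the percentage of transcript stretches found in no other gene under each name. H2-D1 and H2-K1 are at the top in both groups, and for H2-Q6 PBS replicate 1 lies above the WGP points.

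Upstream of the transporter, the immunoproteasome rose as a whole. Its catalytic subunits Psmb8, Psmb9 and Psmb10 replace the constitutive ones under interferon and change the cut toward peptides that fit class I, and Psme1 and Psme2 form the PA28 cap. All 5 of 5 rose, with log2 fold changes of 1.62, 1.86, 1.64, 1.22 and 1.84 and adjusted p-values from 6.43e-05 to 0.00097. Psmb9 was at 81.9, 64.8 and 50.0 CPM in the PBS libraries and at 223, 248 and 240 CPM in the WGP libraries. Of the constitutive subunits Psmb5, Psmb6 and Psmb7, 0 of 3 passed, with fold changes of 0.84, 0.45 and 0.35 and adjusted p-values of 0.0578, 0.112 and 0.289, and Psmb5 passed in 5 and Psmb6 in 1 of 17 alternatives. Tap1 and Psmb9 start close to each other on opposite strands (Psmb9 at chr17:34181987-34187764), with 212 shared exon bases. Psmb8 and Tap2 follow within the same stretch of chromosome 17. The Psmb8 exons share 498 bases, 14.7% of their length, with the antisense gene Gm20496. The log2 ratio of Tap1 to Psmb9 counts went from 1.27 ± 0.06 to 1.62 ± 0.01, with separate groups (exact permutation p = 0.1, adjusted 0.16).

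Of 10 loading and folding factors outside the 10 class I presentation genes, 2 rose, 1 fell and 7 did not pass, with a median log2 fold change of 0.20. Tapbpl, the tapasin-related peptide editor TAPBPR, was at 35.3, 41.7 and 33.1 CPM in PBS and 91.6, 132 and 116 CPM in WGP (1.63, adjusted p = 0.000261). Ganab, the catalytic chain of glucosidase II, rose by 0.53 (adjusted p = 0.0240), a call that 6 of 17 alternatives did not keep. Hspa5, the general chaperone BiP, fell by 1.01 (adjusted p = 0.0135), from 1676 ± 199 to 832 ± 283 CPM, and did not pass without WGP replicate 1 or without WGP replicate 3. The chaperones that hold class I chains before and during loading did not pass: Calr (calreticulin) 0.30, Canx (calnexin) 0.07 and Pdia3 (ERp57) 0.18, with adjusted p-values of 0.264, 0.840 and 0.458. The sign of the Canx value turned to -0.022 with library totals only and to -0.07 without PBS replicate 1.

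Of 6 other peptidases that make or destroy class I peptides 3 rose and 3 did not pass. Lnpep, which encodes the endosomal trimming enzyme IRAP, rose by 0.80, from 188 ± 10.6 to 329 ± 24.5 CPM (adjusted p = 0.00301). Npepps, the cytosolic puromycin-sensitive aminopeptidase, rose by 0.63 (adjusted p = 0.0294), and Lap3, a leucine aminopeptidase, by 0.89 (0.0384). The last 2 were less sure, as Npepps did not pass in 6 and Lap3 in 10 of 17 alternatives. Tpp2, Thop1 and Blmh had fold changes of 0.09, -0.04 and 0.37.

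Among the 11 regulators of class I transcription 4 rose, 0 fell and 7 did not pass. Irf1, an interferon-induced factor that binds the IRF core, was at 267, 212 and 149 CPM in the PBS libraries and at 930, 1284 and 872 CPM in the WGP libraries (2.30, SE 0.24, adjusted p = 0.000153). Every WGP library was above the PBS range, and the mean went from 209 ± 58.8 to 1029 ± 223 CPM. Stat2 rose by 1.29, Irf2 by 0.96 and Rfx5, part of the RFX complex, by 0.75. Rfx5 was at the edge with an adjusted p of 0.0493 and did not pass in 9 of 17 alternatives. The partners Rfxap, Rfxank, Nfya, Nfyb, Nfyc and Creb1, with which NLRC5 works, had fold changes between -0.03 and 0.48 and did not pass, nor did Irf9 (0.39, adjusted p = 0.143). With the Y-linked covariate Rfxap was at 1.03 and Nfyb at 1.02, again without passing.

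Transcripts of interferon gamma itself varied widely between libraries. Ifng was at 12.3, 5.57 and 0 CPM in the PBS libraries and at 1.00, 3.28 and 5.42 CPM in the WGP libraries, with overlapping groups (-0.88, SE 1.39, adjusted p = 0.753), and its sign turned in 3 of 17 alternatives. The receptor chains Ifngr2, Ifnar2 and Ifnar1 rose by 1.51, 0.85 and 0.60 (adjusted p = 5.44e-05, 0.00422 and 0.0191). Ifnar1 did not pass without WGP replicate 1 or without WGP replicate 3. Ifngr1 did not pass (0.55, adjusted p = 0.126), though it did in 2 of 17 alternatives, one of them the Y-linked covariate, where the value was 0.98.

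The other H2 class I genes, the loading and folding factors, the peptidases, the immunoproteasome and the regulators came to 52 genes, of which 40 were tested. Among these 18 rose, 1 fell and 21 did not pass, and 6.81% of all genes tested fell. Their median log2 fold change was 0.44, and 34 of the 40 values were above 0. At a 2-fold threshold 11 rose.

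**Figure D4:**
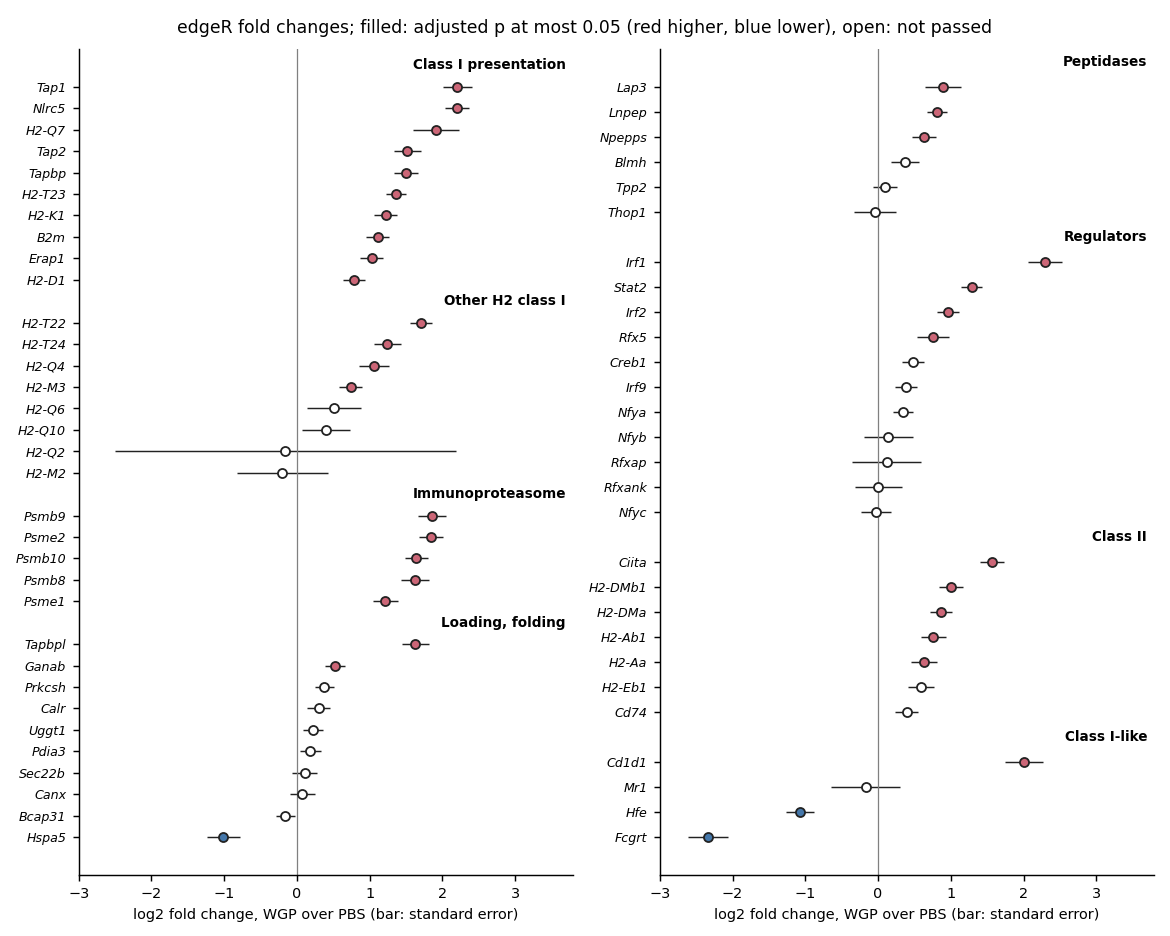
Log2 fold change (WGP over PBS) with standard error for the 10 class I presentation genes and the related lists, filled where the adjusted p is at most 0.05. Class I presentation and immunoproteasome genes are filled throughout and lie to the right of 0, while most loading and folding factors and regulators are open and near 0.

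Class II genes were set beside them, since myeloid cells use class II to present what they take up. Of 7, 5 rose and 2 did not pass, with a median of 0.76. Ciita, the class II transactivator, rose by 1.57, from 220 ± 35.4 to 653 ± 65.7 CPM (adjusted p = 0.000171), H2-DMb1 by 1.00, H2-DMa by 0.87, H2-Ab1 by 0.76 and H2-Aa by 0.63. H2-Aa did not pass in 6 and H2-Ab1 in 2 of 17 alternatives. H2-Eb1 (0.59, adjusted p = 0.050002) missed the threshold by a small margin and passed in 7 of 17 alternatives, and Cd74, the invariant chain, was at 0.39 (adjusted p = 0.155) and passed in 3 of 17 alternatives. The log2 ratio of Nlrc5 to Ciita counts was -1.26 ± 0.36 in PBS and -0.63 ± 0.25 in WGP, and that of H2-K1 to H2-Ab1 was -1.48 ± 0.41 and -1.02 ± 0.23. Both pairs overlapped between groups, with exact permutation p-values of 0.2 and 0.3, so a difference between the class I and class II rises was not shown for them.

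Genes with a class I fold outside the H2 complex went different ways. Cd1d1, which presents lipids to NKT cells, was at 14.7, 8.60 and 9.75 CPM in PBS and 41.4, 41.0 and 50.1 CPM in WGP (2.00, adjusted p = 0.000537). Fcgrt, the neonatal Fc receptor that recycles IgG and albumin, was at 421, 653 and 964 CPM in PBS and 114, 142 and 145 CPM in WGP, a fall with separate groups (-2.34, adjusted p = 0.000287) that was -1.65 with the Y-linked covariate. Hfe, which takes part in the control of iron, fell by 1.08 (adjusted p = 0.00409), though not with the Y-linked covariate (adjusted p = 0.0577). Their protein products all pair with beta-2 microglobulin. Mr1, which presents vitamin B metabolites, did not pass (-0.17, adjusted p = 0.876).

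Transcript levels of cell type markers in the sorted cells moved at the same time. The gate genes Ptprc (CD45) and Itgam (CD11b) were present in all libraries and rose by 0.71 and 0.79. Of 6 resident macrophage markers 5 fell, and their summed level was 3510 to 9133 CPM in PBS and 914 to 1156 CPM in WGP. Of 6 Ly6C-high monocyte markers 4 rose, among them Ccr2 (1.98) and Ly6c2 (2.85), and 1, F13a1, fell, with summed levels of 2232 to 4076 and 3221 to 3673 CPM. The Ly6c2 value was 3.48 without PBS replicate 1, 3.58 without that library and WGP replicate 2, and 2.07 with the Y-linked covariate. All 4 B cell markers fell (305 to 2082 against 70.1 to 136 CPM), as did all 6 acinar markers (978 to 4130 against 270 to 498 CPM). Of the other lists, 1 of 6 NK cell and 1 of 6 dendritic cell markers fell. The dendritic cell sum was 235 to 249 CPM in PBS and 105 to 197 CPM in WGP. In WGP 1 of 6 neutrophil, 1 of 3 endothelial and 1 of 5 T cell markers rose, and no eosinophil or fibroblast marker passed. By value 5 of 6 neutrophil and 2 of 3 endothelial markers were lower in WGP, and 4 of 5 T cell markers were higher. Over all genes tested 7.54% rose and 6.81% fell, so a single call in a list says little of a cell type. Among the defining markers, Cd8a was at 0 counts in the PBS libraries, Epx in all but PBS replicate 1, Prg2 in WGP replicates 2 and 3, and Pdgfra in WGP replicates 1 and 3, while Cd3d was at 0 in PBS replicates 1 and 2, Cd3e in PBS replicate 1 and Cd3g in WGP replicate 3. The part of these cell types in the class I values was not tested. WGP replicate 2 stood apart by fibroblast transcript, with a summed level of 630 CPM beside 17.9 and 18.1 in the other WGP libraries, and Y-linked genes were counted above 1 CPM only in PBS replicates 2 and 3. With each of these libraries left out in turn, and with PBS replicate 1 and WGP replicate 2 left out together, all 10 class I presentation genes still rose. Their fold changes also stayed positive with the Y-linked covariate, but that covariate rests the comparison on PBS replicate 1 alone.

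**Figure D5:**
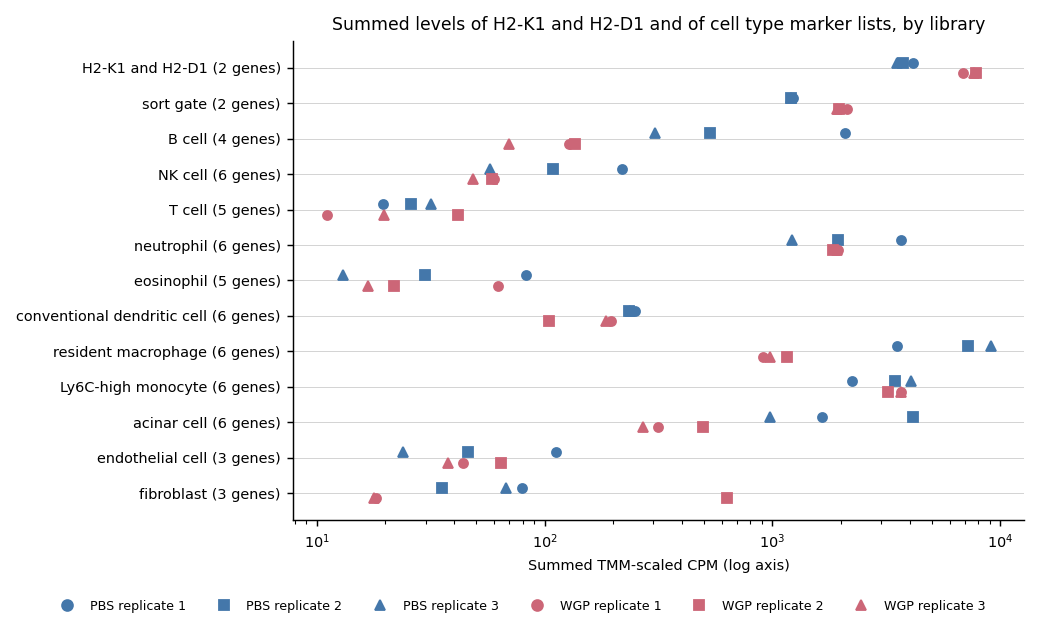
Summed TMM-scaled CPM (log axis) of H2-K1 and H2-D1 and of each cell type marker list, by library. The class I sum is separate between PBS (blue) and WGP (red), as is that of the sort gate genes, and those of B cell, conventional dendritic cell, resident macrophage and acinar markers are separate in the other direction, and PBS replicate 1 is far to the right for B cells and WGP replicate 2 for fibroblasts.

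Among genes of at least 10 CPM on average, those whose log2 profile over the 6 libraries was most like the mean profile of the 10 were Fgl2, Gapdh, Zbp1, Psme2 and Gbp5, with Pearson correlations of 0.999, 0.998, 0.998, 0.998 and 0.998. All were chosen for this likeness, over libraries that share the group difference, so the values are a description. Fgl2, a fibrinogen-like protein of activated macrophages, was at 157, 144 and 128 CPM in PBS and 625, 848 and 730 CPM in WGP. Zbp1, a sensor of nucleic acids, had a log2 fold change of 2.98, and Gbp5, a guanylate-binding protein, one of 5.37. Gapdh, a glycolytic enzyme often used as a reference in quantitative PCR, was itself at 442, 371 and 328 CPM in PBS and 1000, 1150 and 1083 CPM in WGP (1.50, adjusted p = 0.000176).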

How the data were processed

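RNA of sorted CD45+CD11b+ pancreatic cells was sequenced as 3 PBS and 3 WGP libraries on 1 run with single-end reads. Per the submitters' processing notes and the study's methods, the authors aligned the reads to mm10 (GRCm38.p6) with STAR (version 2.6), and deposited raw counts per Ensembl gene from HTSeq (version 0.10.0), with no normalization. The annotation release, the strand setting and the treatment of duplicate reads are not given in the sources used here. Total counts were 35334645 to 40580936 in PBS and 38240913 to 43341834 in WGP. The floor of 3 counts given for genes without counts covers counting error only, while the SD and the standard error take in variation between libraries.

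Symbols, exon lengths and gene coordinates came from GENCODE vM21, in which 21700 of the 21780 rows are protein-coding. Protein-coding genes whose RLE-normalized counts reached a sum of 10 were kept, and these 14429 genes were tested with edgeR 4.0.16 (R 4.3.3): TMM scaling, quasi-likelihood test of WGP against PBS, Benjamini-Hochberg adjustment over all of them. A gene was called at an adjusted p of at most 0.05. The standard error is the absolute log2 fold change divided by the square root of F. Ratios between genes were compared by exact two-sided permutation tests over libraries. The script was tested on simulated counts. Replicate libraries differed by more than sampling noise. Shared 75-base stretches were counted over the GENCODE transcripts, and promoter windows were taken from RefSeq.

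Alternatives were RLE, upper-quartile and total-count scaling, other filters, all features, limma-voom (limma 3.58.1), DESeq2 1.42.0 (Wald test), the replicate number as a block, a covariate for Y-linked counts, a 2-fold threshold and each library left out. Leaving out PBS replicate 1 together with WGP replicate 2 was added after seeing the data. The genes, the lists of related genes and the marker lists were chosen with earlier results of these data known. All 10 genes are named, then genes of those lists, then the 5 genes closest in profile. The values of 1 regulator are not reported here, and the list counts leave it out.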

Additional observations from a re-analysis of the deposited data

How the results depend on the processing

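All 10 class I presentation genes rose and 0 fell under each of the 17 alternatives, and 9 rose with the 2-fold threshold. Their lowest log2 fold change was 0.68 (H2-D1, library totals only, which moved the median of all genes by -0.10) and their highest adjusted p 0.0351 (H2-D1, without PBS replicate 2). With single libraries left out, 13 to 17 of the wider class I genes rose and 0 to 1 fell, Hspa5 missing the threshold without WGP replicate 1 (-0.88) or 3 (-0.87), and with the 2-fold threshold 11 rose. Among the 74 genes followed through the alternatives, the sign turned for 13. With libraries left out (singly, or PBS replicate 1 with WGP replicate 2) log2 fold changes ran from -0.12 to 0.21 for Canx, -0.55 to 0.50 for H2-M2, -1.86 to 1.37 for H2-Q2, -1.48 to 0.21 for Ifng, -0.65 to 0.34 for Mr1, -0.16 to 0.32 for Nfyb, -0.15 to 0.082 for Nfyc, -0.23 to 0.27 for Rfxank, -0.56 to 0.33 for Rfxap, -0.19 to 0.11 for Thop1 and -0.11 to 0.25 for Tpp2. With library totals only, Canx was at -0.022, Rfxank at -0.10 and Tpp2 at -0.0043. With the Y-linked covariate H2-Q6 was at -0.30, H2-Q10 at -0.11, Rfxank at -0.091, Mr1 at 1.01, Rfxap at 1.03 and Nfyb at 1.02, and with limma-voom Ifng was at 1.60, H2-M2 at 0.0098 and Mr1 at 0.0060. Rfxank was also at -0.0070 with RLE or DESeq2 and -0.028 with upper-quartile scaling, and H2-M2 at 0.0060 with the replicate block. None of these genes passed in the edgeR test reported above, and the cause was not tested. The Y-linked covariate sets the WGP libraries against PBS replicate 1. Libraries with the same replicate number did not deviate together (correlations 0.04, -0.07 and 0.06). With the replicate block 10 class I presentation genes rose, 17 of the wider class I genes rose and 1 fell, and H2-Aa and Lap3 no longer passed while Psmb5 did. Over all genes tested, calls numbered 1088 higher and 983 lower, and 1326 and 1366 with DESeq2. With 3 libraries a group, no exact permutation test over libraries can go below 0.1, and genes that vary widely between libraries, such as Ifng, have wide errors.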
